A study of Arabidopsis thaliana with 11 samples.

Results

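The regions of the Arabidopsis genome bound by the floral MADS-domain transcription factor SEPALLATA3 (SEP3) at day 8 of flower development were set against those bound at day 4. The day 8 list held 7815 peaks and the day 4 list 6843, together 14658 of the 18963 regions in the 6 peak lists of the series. A peak was counted as kept when it shared at least 1 bp with a peak of the other day. A day 8 peak without such a partner was counted as newly called, and a day 4 peak without one as lost. Genes were sorted in the same way by the loci that the authors had assigned to each peak, and 8263 loci were assigned at day 8 and 7520 at day 4. Of the day 8 peaks, 1971 were newly called, which was 25.2% of them (95% Wilson interval 24.3 to 26.2%). Of the day 4 peaks, 903 were lost, which was 13.2% (12.4 to 14.0%). Of 13 gene lists examined, epidermis and cuticle genes had the highest share of newly called peaks (16 of 29), and 15 of 59 day 4 peaks near meristem and organ boundary genes were lost. The lists were chosen with earlier results of these data known, so their order is a description only.

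Binding was measured by ChIP-seq, the sequencing of DNA precipitated with a chromatin protein, in inflorescences of ap1-1 cal-1 plants of the Landsberg background that carry pAP1:AP1-GR. These plants lack functional AP1 and CAL, and the transgene holds AP1 fused to a glucocorticoid receptor domain (GR) under the AP1 promoter, so that dexamethasone, given daily, starts flower formation in many meristems together. Day 8 (organ differentiation) and day 4 (organ specification) tissue carried the same genotype and treatment and differed in the days since the first dexamethasone. SEP3 was precipitated with an antibody against a SEP3 peptide, and a mock precipitation with pre-immune serum of the same day was the control. Each list combined 2 biological replicates before peaks were called, so there is no spread between replicates, and intervals below cover counting error only. Peaks are not replicates of a condition, and a locus can be assigned several peaks. The series also holds a SEP3 list of day 2 (1776 peaks) and AP1 lists of days 2, 4 and 8 (498, 956 and 1075 peaks, from a GR antibody). The samples behind the SEP3 day 2 list are titled as day 2 but their tissue label reads 4 days, and each overlap with that list carries this doubt. The tissue is a whole inflorescence, so a site bound in fewer cells and a site bound less in each cell cannot be told apart.

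SEP3 is a member of the MADS-domain family that acts in flower development together with the A, B and C class organ identity proteins, with which it forms tetramers. MADS-domain proteins bind as dimers to CArG boxes, which consist of CC, a run of A and T, and GG. SEP3 is known as a bridging partner in these complexes and acts from the floral meristem stage through to the formation of petals, stamens and carpels.

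The sequences around some of the peak summits that carry these differences are given first. Each holds the 101 bases centred on the summit, 5′ to 3′ on the forward strand of the RefSeq TAIR10.1 assembly. That assembly is of the Columbia accession, whereas the plants were Landsberg. Capitals mark a CArG box, searched as CC followed by 6 bases that are each A or T and then GG, a pattern that reads the same on both strands. The newly called peaks with the highest fold enrichment among those with such a box lay in an intron of SPPL2 (chr1:23620058-23620158), in the coding exon of AT2G15880 (chr2:6919208-6919308) and beside the plastid transporter gene CUE1 (chr5:12586590-12586690).
SPPL2: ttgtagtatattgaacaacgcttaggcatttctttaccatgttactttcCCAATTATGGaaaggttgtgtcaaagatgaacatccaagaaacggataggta
AT2G15880: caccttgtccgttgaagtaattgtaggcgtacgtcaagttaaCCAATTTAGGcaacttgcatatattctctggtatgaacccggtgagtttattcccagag
CUE1: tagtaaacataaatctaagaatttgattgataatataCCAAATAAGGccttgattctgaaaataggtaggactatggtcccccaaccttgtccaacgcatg

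Among lost peaks with a box, the highest fold enrichment belonged to peaks beside mSFC1 (chr5:142891-142991) and near THH1, PER4 and AT1G14550 (chr1:4976333-4976433).
mSFC1: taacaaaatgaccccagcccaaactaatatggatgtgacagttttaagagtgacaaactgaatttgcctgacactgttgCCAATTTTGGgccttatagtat
THH1 and PER4: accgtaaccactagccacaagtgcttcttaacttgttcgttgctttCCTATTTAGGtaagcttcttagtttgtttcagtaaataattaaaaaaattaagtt

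An exact box was also present in the lost peak within FT (chr1:24331758-24331858), the gene of the mobile flowering signal, and in the newly called peak upstream of GA20OX1 (chr4:12994742-12994842), which encodes an enzyme of gibberellin synthesis.
FT: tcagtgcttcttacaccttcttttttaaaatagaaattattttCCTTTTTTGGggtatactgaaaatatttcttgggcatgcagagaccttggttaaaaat
GA20OX1: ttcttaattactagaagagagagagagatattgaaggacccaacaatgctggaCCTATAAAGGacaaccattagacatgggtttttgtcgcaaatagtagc

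No exact box was found within 50 bp of the summit in any of the 16 newly called peaks near epidermis and cuticle genes or in any of the 15 lost peaks near meristem genes, whose values follow further on. The box was rare among changed peaks in general, at 3.70% of all newly called and 2.88% of all lost peaks. For these, an example each is shown with capitals on a box that departs from the pattern at 1 base, both chosen after their values were seen. They are the newly called peak upstream of SHN3 (chr5:8818955-8819055), an activator of cuticle formation, and the lost peak upstream of CUC2 (chr5:21905198-21905298), an organ boundary gene.
SHN3: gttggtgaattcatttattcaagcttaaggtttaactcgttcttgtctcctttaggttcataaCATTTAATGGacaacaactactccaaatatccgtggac
CUC2: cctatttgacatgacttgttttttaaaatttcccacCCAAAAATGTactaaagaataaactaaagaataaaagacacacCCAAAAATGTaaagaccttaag

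Lost peaks more often held a run of 8 alternating G and A, on either strand, than kept peaks did. Here, capitals mark that run in the lost peaks near AT4G39790 and AT4G39795 (chr4:18465022-18465122) and near AT5G52020 and AT5G52030 (chr5:21126361-21126461), also chosen after their values were seen.
AT4G39790 and AT4G39795: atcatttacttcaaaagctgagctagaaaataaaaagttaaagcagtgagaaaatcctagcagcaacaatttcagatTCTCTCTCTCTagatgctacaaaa
AT5G52020 and AT5G52030: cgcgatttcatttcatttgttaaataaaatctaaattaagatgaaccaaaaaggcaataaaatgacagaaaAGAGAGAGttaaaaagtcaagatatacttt

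The newly called peaks were weak within the day 8 list, and the lost peaks were weak within the day 4 list. Fold enrichment is the linear ratio of signal over control at the summit, as the authors' peak caller gave it. Newly called peaks had a median fold enrichment of 2.58 (interquartile range 2.35 to 2.90, highest 5.17), against 3.73 for kept day 8 peaks (2.92 to 5.0, highest 8.92). Lost peaks had a median of 3.24 (2.94 to 3.67, highest 6.68), against 4.49 for kept day 4 peaks (3.53 to 6.15, highest 12.27). New and lost peaks were also narrower. Their median widths were 257 bp for new peaks against 409 bp for kept day 8 peaks, and 238 bp for lost peaks against 360.5 bp for kept day 4 peaks. When the day 8 list was split into 10 equal bins by fold enrichment, 61.1% of the weakest bin was newly called, 25.8% of the bin just below the middle, and 0.64% and 0% of the strongest 2 bins. The same split of the day 4 list gave 35.9% lost in the weakest bin, 12.7% just below the middle and 0.15% and 0% in the strongest 2 bins.

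**Figure D1:**
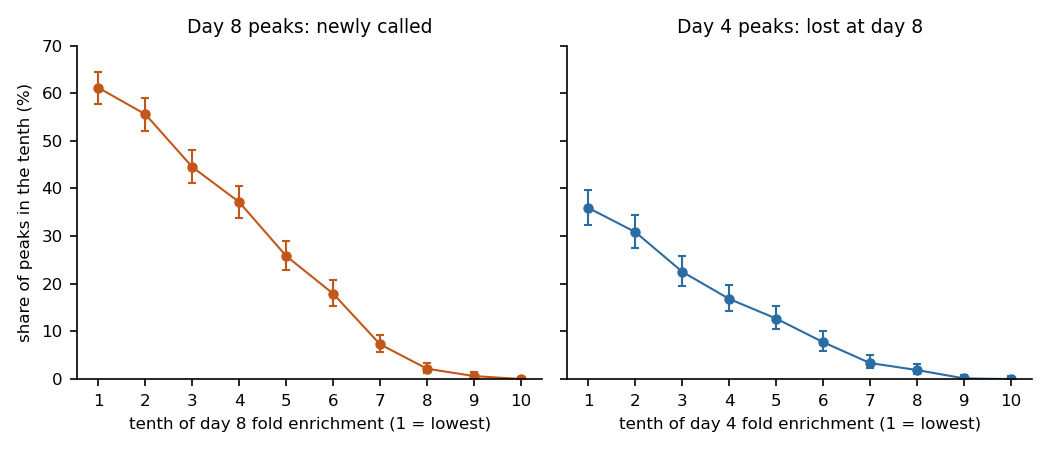
Share of day 8 SEP3 peaks newly called and of day 4 SEP3 peaks lost (vertical axis, percent, with 95% Wilson intervals over peaks) in 10 bins of fold enrichment within each list, lowest to highest. The newly called share was 61.1% in the weakest bin and 0% in the strongest, and the lost share 35.9% and 0%.

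Not all newly called peaks were close to the threshold of the list. The −log10 of the false discovery rate (q), as deposited, was at least 10 for 1083 newly called peaks (54.9%), against 89.6% of kept day 8 peaks, and for 298 lost peaks (33.0%), against 77.4% of kept day 4 peaks. The lists themselves differed. The day 8 list covered 2.86% of the genome and the day 4 list 2.37%, the median −log10 q was 19.94 at day 8 and 15.77 at day 4, and the median fold enrichment was 3.27 at day 8 and 4.20 at day 4. Sequencing depth was not set against these values. When only the 6843 day 8 peaks with the highest fold enrichment were used, the newly called share was 20.3% and the lost share 18.5%. Lists of equal length hold these shares near each other by arithmetic, so their closeness says nothing about gain against loss. When only peaks with −log10 q of at least 10 were used on both days, the shares were 30.7% newly called and 9.71% lost.

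Most newly called peaks were separate from any day 4 peak. The median distance from a newly called peak to the nearest day 4 peak was 2588 bp. Only 7 of them came within 50 bp of one, 563 (28.6%) lay within 1000 bp and 694 (35.2%) lay more than 5000 bp away. For lost peaks, the median distance to the nearest day 8 peak was 2107 bp, with 6 within 50 bp, 303 (33.6%) within 1000 bp and 295 (32.7%) beyond 5000 bp. The kept peaks formed 6017 overlapping pairs, and 5 of these overlapped by less than 10 bp. Summits of kept day 8 peaks lay a median of 16 bp from the day 4 summit, but for 281 peaks (4.81%) the distance was more than 150 bp. Kept peaks were wider at day 8 in 64.1% of pairs. The changes were spread over the genome, since newly called shares ran between 24.2 and 26.8% and lost shares between 12.3 and 13.9% over the 5 chromosomes.

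CArG boxes were rarer in both groups of changed peaks. An exact box within 50 bp of the summit was present in 73 newly called peaks (3.70%, interval 2.96 to 4.63%), against 6.52% of kept day 8 peaks (5.91 to 7.18%). It was present in 26 lost peaks (2.88%, 1.97 to 4.18%), against 6.50% of kept day 4 peaks (5.90 to 7.15%). In 1179665 consecutive windows of 101 bases over the reference genome the share was 0.593%. Fold enrichment moves with this difference. In the weakest of 5 equal bins of the day 8 list the box was present in 35 of 912 newly called (3.84%) and 22 of 651 kept peaks (3.38%). In the next-to-strongest bin it was in 3 of 74 newly called (4.05%, 1.39 to 11.3%) and 100 of 1489 kept peaks (6.72%, 5.55 to 8.10%), with intervals that overlapped. How far the difference is one of peak strength was not tested. A match to the letters is a description of the sequence and does not show a binding site.

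The run of alternating G and A followed another pattern. It was present in 70 lost peaks (7.75%, 6.18 to 9.68%), against 5.40% of kept day 4 peaks (4.86 to 6.01%), and the intervals did not overlap. In the middle of 5 bins of day 4 fold enrichment the shares were 12.1% of lost and 6.51% of kept peaks, and in the weakest bin 7.88% and 2.85%. In the next-to-strongest bin it was in none of the 36 lost peaks and in 5.71% of kept peaks. Newly called peaks held it in 77 cases (3.91%, 3.14 to 4.86%), against 5.36% of kept day 8 peaks (4.81 to 5.96%), with intervals that met. The share in all windows of the same length was 2.08%.

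By the position of the summit in the RefSeq annotation, lost peaks lay more often in 5′ UTRs and coding exons. The 5′ UTR held 18.3% of lost summits against 14.2% of kept day 4 summits, and coding exons held 6.76% against 3.70%. Other transcribed classes were close, with introns at 8.97% against 8.11%, 3′ UTRs at 6.20% against 6.36% and noncoding exons at 3.10% against 3.60%. For newly called peaks the 5′ UTR share was 11.3% against 14.4% of kept day 8 summits, and intergenic sequence outside promoters held 34.6% against 30.3%. Promoters held 29.3% of lost summits (26.5 to 32.4%) against 33.9% of kept day 4 summits (32.7 to 35.2%), and 32.1% of newly called against 33.5% of kept day 8 summits. Peak strength was not taken into account in these position shares.

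The changed SEP3 peaks were seldom shared with AP1, the partner whose fusion protein was induced, but this share moved with peak strength. Of the newly called peaks, 46 overlapped an AP1 peak of day 8 (2.33%), against 895 kept day 8 peaks (15.3%). None of the 1971 newly called peaks overlapped an AP1 peak of day 4, but this was largely set by the rule. Newly called peaks are those without a SEP3 day 4 peak, and 900 kept SEP3 day 4 peaks overlapped the 956 AP1 peaks of that day. Of the lost peaks, 5 overlapped an AP1 peak of day 4 (0.554%), against 900 kept day 4 peaks (15.2%). These shares depended on the matching rule. A reciprocal overlap of 50% gave 2.08% of lost against 6.50% of kept day 4 peaks, and summits within 150 bp gave 2.81% against 15.1%. Of the 895 kept peaks shared with AP1 at day 8, 665 were in the strongest of 5 bins of SEP3 fold enrichment, so the other bins were compared as well. In the weakest bin, 10 of 912 newly called (1.10%) and 8 of 651 kept peaks (1.23%) overlapped AP1 at day 8. The middle bin gave 15 of 342 (4.39%) and 40 of 1221 (3.28%), and the next-to-strongest bin 8 of 74 (10.8%) and 159 of 1489 (10.7%). Within these bins, newly called and kept shares were thus close. For lost peaks and AP1 at day 4, the weakest bin of the day 4 list gave 1 of 457 lost (0.219%) against 5 of 912 kept peaks (0.548%). The middle bin gave 2 of 140 (1.43%) against 57 of 1229 (4.64%), and the next-to-strongest bin 2 of 36 (5.56%) against 175 of 1332 (13.1%). The lost shares thus rest on 1 or 2 peaks per bin.

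Overlap with the earlier SEP3 list was compared next. The day 2 list overlapped 62 lost peaks (6.87%, 5.39 to 8.70%), against 22.8% of kept day 4 peaks, and 6 newly called peaks (0.304%), against 23.2% of kept day 8 peaks. Newly called peaks are by rule absent at day 4, and 1356 kept day 4 peaks overlapped the day 2 list of 1776 peaks. Few day 2 sites were thus left for newly called peaks, and their difference from lost peaks is largely set by the rule. Among day 4 peaks of the next-to-strongest bin, 18 of 36 lost peaks were also in the day 2 list, against 234 of 1332 kept peaks. Thus, the stronger lost peaks were often sites already listed for day 2, with the doubt about the day of that list.

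**Figure D2:**
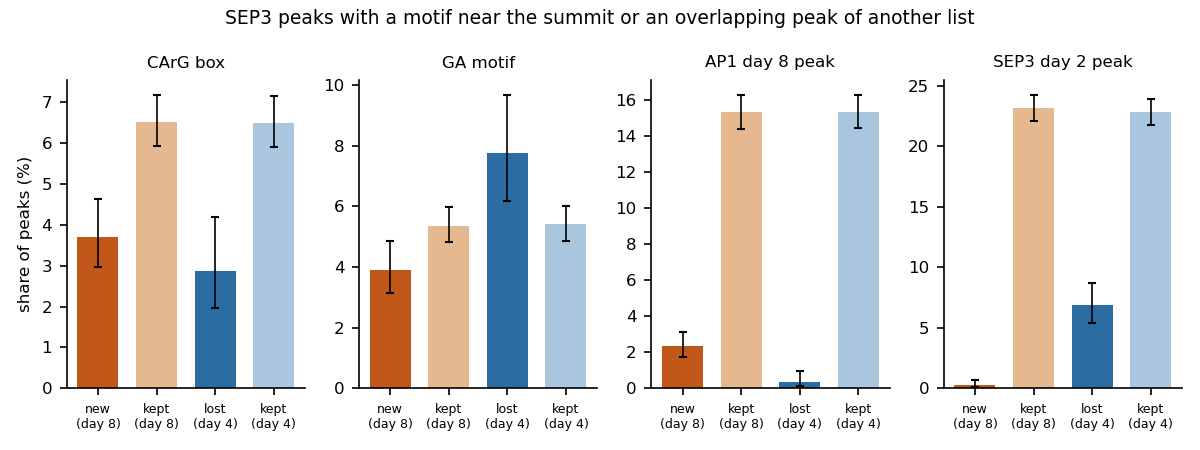
Share of new and kept day 8 peaks and of lost and kept day 4 peaks (percent, with 95% Wilson intervals over peaks) that held an exact CArG box or a run of alternating G and A near the summit, or that overlapped other peak lists of the series. The CArG box was in 3.70% of new and 6.52% of kept day 8 peaks, and in 2.88% of lost and 6.50% of kept day 4 peaks.

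The newly called peaks with the highest fold enrichment at day 8 lay near genes of several kinds. The first was 381 bp upstream of AT3G45260, a C2H2 zinc finger gene, with a fold enrichment of 5.17 and a −log10 q of 52.76. It also lay in the AP1 day 8 list, and the nearest day 4 peak was 58445 bp away. The next, with 5.06, lay 618 bp past the end of CUT1 (KCS6), which encodes an enzyme of very-long-chain fatty acid elongation for cuticular wax, and 807 bp upstream of BBX14. This peak was only 348 bp from a day 4 peak. The peak upstream of DOF6, a gene of the DOF zinc finger family, had 4.97. The peak 104 bp upstream of IAMT1, which encodes a methyltransferase of the auxin indole-3-acetic acid, had 4.44 and was 22072 bp from a day 4 peak. The rest of the strongest 8 lay at AT1G51090 (4.93), GER1 (4.67), ROS4 and DJ1A (4.56, also in the AP1 day 8 list) and SPPL2 (4.51). Those at GER1 and at ROS4 and DJ1A were 1198 and 524 bp from a day 4 peak.

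The lost peaks with the highest fold enrichment at day 4 included 2 near genes of hormone synthesis. The strongest lay in an intron of ROT3, a cytochrome P450 gene of brassinosteroid synthesis, with a fold enrichment of 6.68 and a −log10 q of 36.19. A lost peak 296 bp upstream of IPT1, a gene of cytokinin synthesis, had 5.76. A lost peak 392 bp upstream of the microRNA gene MIR172d had 6.32, and miR172 is known to repress AP2-type genes such as AP2 itself. This peak was 467 bp from a day 8 peak, whereas the lost peak of 6.28 near AT4G20100 and VSR7 was 62239 bp from any. The other 4 lay near snoRNA genes AT3G58193 and AT3G58196 (6.09), NPY3 and ZF1 (5.99), LRB3 (5.98) and MSL10 (5.82). Of these 8, 6 were in the SEP3 day 2 list, all but those at LRB3 and IPT1.

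The strongest kept peaks were among the strongest on both days. Fold enrichment was 8.92 at day 8 against 8.44 at day 4 near TPPI, a gene of trehalose metabolism. Near PHV, a class III homeodomain-leucine zipper gene of adaxial organ identity, it was 8.90 against 10.62. At AT3G50650, it was 8.90 against 11.61, and at LEJ2, 8.90 against 12.24. Since folds of the lists are on separate scales, ratios were read against the median of all 5844 kept day 8 peaks with their day 4 partners. This median was −0.32 on the log2 scale, and 82.5% of pairs had the lower fold at day 8.

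Relative to that median, the pairs from the 5th to the 95th percentile lay between −0.54 and 0.62 on the log2 scale. Only 38 pairs (0.65% of 5844) were at least 2-fold above the median and 30 (0.513%) at least 2-fold below it. At 1.5-fold, 343 pairs (5.87%) were above and 229 (3.92%) below. Values of a pair come from 1 list each, so no test of a single pair was possible. Some large ratios come from a broad region whose summit moved. With summits no more than 150 bp apart, 34 pairs were above and 15 below at 2-fold.

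Pairs near genes with a −log10 q of at least 10 on both days were ranked by their ratio. Above the median, the largest log2 difference from it was 1.51 near GRP7, a gene of an RNA-binding protein with roles in the circadian clock and flowering time, with folds of 8.05 at day 8 against 3.54 at day 4. HPL1, the gene of a hydroperoxide lyase, had 7.45 against 3.94 (1.24). The organ polarity gene YAB2 had 7.07 against 3.80 (1.22). The nitrate transporter gene NRT1:2 had 5.78 against 3.27 (1.14). SNG1, which encodes an enzyme of sinapoyl malate synthesis, had 5.71 against 3.32 (1.11).

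Below the median, the 5 largest log2 differences of this ranking all came from pairs whose summits lay 565 to 1151 bp apart. They were at LSH1 (2.69 at day 8 against 11.94 at day 4, difference −1.83), ATH1 (2.73 against 11.45, −1.75), DPA4 (2.99 against 11.08, −1.57), AT1G48330 (3.14 against 10.72, −1.45) and HCF106 (3.02 against 10.06, −1.41). In these, the overlap joins a weak day 8 summit to a strong day 4 summit of another position. Pairs with nearby summits lay at MIR319a, whose microRNA represses TCP genes of leaf and petal growth (3.25 against 8.60, −1.08), at the boundary gene CUC3 (2.74 against 7.18, −1.07), at KNAT2 (2.83 against 7.16, −1.02) and at FD, the partner of FT (4.29 against 10.63, −0.99).

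**Figure D3:**
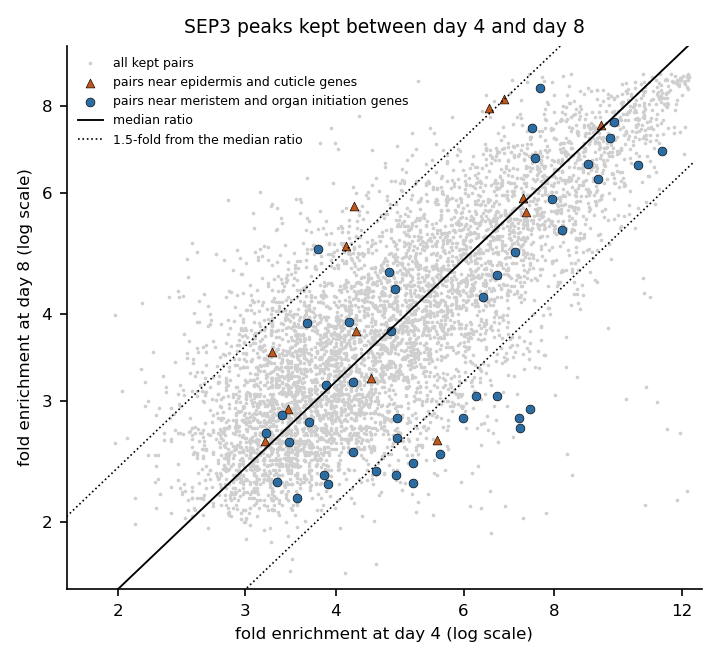
Fold enrichment at day 8 (vertical axis) against day 4 (horizontal axis, both log scaled) for 5844 kept SEP3 peaks, with the median ratio and the limits of a 1.5-fold departure drawn as lines. Of the pairs, 343 lay at least 1.5-fold above the median ratio and 229 at least 1.5-fold below it. At 2-fold, 38 lay above and 30 below.

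At the level of genes, 6760 loci were assigned on both days, 1503 only at day 8 (18.2% of the day 8 loci, 17.4 to 19.0%) and 760 only at day 4 (10.1% of the day 4 loci, 9.45 to 10.8%). With the day 8 list limited to the length of the day 4 list, the shares were 14.1% newly called and 14.8% lost. Equal list length largely set how close these shares were. A change of peaks and a change of genes are not the same. Of the 1503 new genes, 1475 had a newly called peak, and another 1115 genes that were already assigned at day 4 gained 1. Of the 760 lost genes, 714 had a lost peak, while 623 genes still assigned at day 8 had a lost peak beside kept ones. Genes with both a newly called and a lost peak numbered 162. Of the kept genes, 1011 had more peaks at day 8, 5119 the same number and 630 fewer. AP1 day 8 targets were 31 of the new genes (2.06%), against 1053 of the kept genes (15.6%), and AP1 day 4 targets were 9 of the lost genes (1.18%), against 1028 of the kept genes (15.2%). Peak strength was not taken into account in these gene shares.

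For the gene lists below, the background was the 27432 protein-coding nuclear genes of the annotation, of which 5.2% were newly called, 2.6% were lost and 23.1% were kept. Of those not assigned a peak at day 4, 7% were newly called. Of those assigned at day 4, 10.1% were lost. Over all 13 lists, which hold 217 genes, 157 were kept, 17 newly called and 10 lost, and 33 had no peak on either day. These are counts with no test of the list, and the lists were chosen with earlier results of these data known.

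Genes of the epidermis and cuticle held the most newly called targets of the 13 lists. Of 18 genes, 9 were kept, 7 were newly called, none was lost, and PDF2 and LACS2 had no peak. Thus, 7 of the 9 genes without a peak at day 4 had one at day 8 (77.8%), against 7% of protein-coding genes. The newly called genes cover several steps of cuticle and cell surface formation. SHN2 and SHN3 are AP2-type transcription factor genes that activate cuticle formation, as is SHN1, which was kept. MYB16 and MYB106 encode MYB factors of conical petal cells and cuticle. CYP86A4 and GPAT6 encode enzymes of cutin synthesis, and TTG1 encodes a WD40 protein of trichome formation.

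MYB16 had a newly called peak of 3.65 at day 8 (−log10 q 30.16), 1623 bp upstream of its start and 5849 bp from any day 4 peak, and another of 2.40. SHN3 had 3 newly called peaks of 2.86, 2.57 and 2.51 around the gene and the nearest day 4 peak was 20477 bp away. SHN2 had one of 2.81, 213 bp upstream. TTG1 had one of 2.88. GPAT6 had 2.80 and 2.70, and CYP86A4 had 2.53 and 2.43. The 2 peaks of MYB106 had the lowest folds, with 2.39 and 2.31 and a −log10 q of 9.94 and 8.73. Apart from the peak of 3.65, these folds ran between 2.31 and 2.88, and the median over all newly called peaks was 2.58.

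Genes of the same list that had a SEP3 peak at day 4 gained more. Besides the peak at CUT1 (5.06, 348 bp from a day 4 peak), LTP1, a lipid transfer protein gene of the epidermis, had a newly called peak of 3.63 only 63 bp upstream. The LTP1 peak was 605 bp from a day 4 peak. CER1, an enzyme gene of wax alkane formation, had one of 3.07. In all, 16 of the 29 day 8 peaks near these genes were newly called (55.2%), against 25.2% of all day 8 peaks and 24.99% of those near protein-coding genes. Of the 19 day 4 peaks, 1 was lost (5.26%), near GL2, a homeodomain gene of trichomes, against 13.2% of all day 4 peaks. This order turned with the overlap rule. With a reciprocal overlap of 50%, 11 of the 19 were lost (57.9%), against 21.0% of all day 4 peaks, and with summits within 150 bp 6 were lost (31.6%), against 18.7%. The median log2 ratio of the 13 kept pairs was 0.09 above that of all kept pairs. SHN1 had 7.96 at day 8 against 6.51 at day 4, and the trichome MYB gene GL1 had 8.20 against 6.83. CUT1 had a kept peak with 5.73 against 4.24. GL3, a bHLH gene of trichome formation, went the other way with 2.63 against 5.52. None of the 16 newly called peaks overlapped an AP1 peak or a day 2 SEP3 peak, but over all newly called peaks these shares were also low, at 2.33% and 0.304%.

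Meristem maintenance and organ initiation genes had the opposite pattern at the level of peaks. Of 23 genes, 20 were kept, 1 was lost, none was newly called, and CLV2 and CLV3 had no peak. The lost gene was KNAT1, a KNOX homeobox gene, whose peak of 4.37 at day 4 lay 89 bp inside the gene. Although only 1 gene of 21 lost its assignment (background 10.1%), 15 of the 59 day 4 peaks were lost (25.4%), against 13.2% of all day 4 peaks and 13.35% of those near protein-coding genes. They lay near 11 of the 21 day 4 targets (52.4%), against 17.8% of protein-coding day 4 targets. Only 3 of the 47 day 8 peaks were newly called (6.38%), near BLH9, AIL7 and JAG, with folds of 2.50 to 2.57, against 25.2% of all day 8 peaks. This count was 9 of 47 (19.1%) with a reciprocal overlap of 50%, against 30.9% of all day 8 peaks, and 7 of 47 (14.9%) with summits within 150 bp, against 28.8%.

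The organ boundary genes CUC1, CUC2 and CUC3 each lost peaks. CUC2 had 1 peak at day 8 against 4 at day 4, and its lost peaks had folds of 4.66, 3.31 and 2.85 at 1394, 822 and 1803 bp upstream. CUC3 lost a peak of 4.96 at 1034 bp upstream, and CUC1 one of 3.38. Other boundary genes, LOB, BOP1 and BOP2, lost peaks of 3.04, 3.11 and 3.90. Among the KNOX genes, which maintain the undifferentiated state of the meristem, STM lost a peak of 4.83 that lay 2492 bp upstream, KNAT6 lost peaks of 3.67 and 3.58, and KNAT2 one of 3.57. ULT1, which acts in meristem termination, lost peaks of 3.71 and 3.25.

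Kept peaks near the same genes also had lower folds at day 8 than other kept peaks. The median log2 ratio of the 44 kept pairs was 0.23 below that of all pairs, and 33 of them (75.0%) lay below it. At 1.5-fold, 11 pairs were below and 1 was above, against 3.92% and 5.87% of all kept pairs. The kept peaks of STM had 3.05 at day 8 against 6.68 at day 4 and 2.51 against 5.56. CLV1, the receptor kinase gene of stem cell control, had 2.83 against 5.99. CUC3 had 2.74 against 7.18, and CUC1 had 2.44 and 2.28 in 2 day 8 peaks against 5.11 in the day 4 peak that both overlapped. A pair at ULT1 had 2.92 against 7.40 with summits 288 bp apart. The pair above the limit lay at AIL5, with 4.97 against 3.78. WUS, the stem cell organiser gene, kept its peak, with 3.90 at day 8 against 4.17 at day 4.

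**Figure D4:**
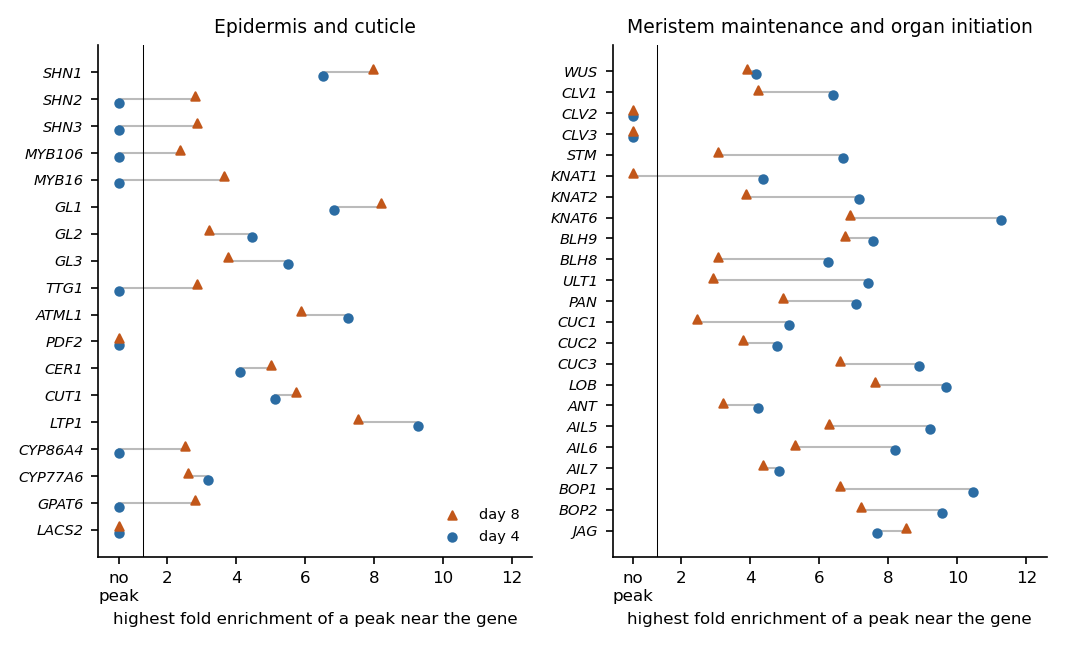
Highest fold enrichment of a SEP3 peak assigned to each gene (horizontal axis) at day 8 (triangles) and day 4 (circles) for 18 epidermis and cuticle genes and 23 meristem genes, with genes lacking a peak placed at the left. Of the epidermis genes, 7 had a peak at day 8 and none at day 4, and of the meristem genes KNAT1 had a peak at day 4 and none at day 8.

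Of 13 floral organ identity genes, 12 were kept and only STK, an ovule identity gene, had no peak on either day. None of the 12 day 4 targets was lost, against 10.1% of protein-coding day 4 targets, a share at which 12 genes would lose few. The stamen and anther, petal, sepal and organ growth, epidermis and cuticle, jasmonate, and brassinosteroid and ethylene lists also lost no gene. Of 33 day 8 peaks near the organ identity genes, 2 were newly called (6.06%), against 25.2% of all day 8 peaks. Of their 36 day 4 peaks, 3 were lost (8.33%), against 13.2%. Differences from the median log2 ratio of all kept pairs are given in brackets. The highest fold of a peak assigned to the petal and stamen identity gene AP3 was 7.48 at day 8 against 6.80 at day 4 (0.46). For PI, of the same organs, it was 8.85 against 8.24 (0.43). For AG, which specifies stamens and carpels, it was 7.67 against 9.79 (−0.03), close to the median ratio. AGL6 had 7.15 against 9.72 (−0.12) and SHP2 7.65 against 11.32 (−0.24). Kept peaks at SHP1 had 5.95 against 6.83 (0.12), 5.24 against 8.70 (−0.41) and 3.55 against 5.80 (−0.39).

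The newly called peaks of this list lay upstream of PI (3.48, at 1585 bp) and AP2 (3.68, at 290 bp), and both overlapped an AP1 peak of day 8. AP2 also lost a peak of 3.70 past its end. The AP1 gene had 2 peaks at day 8 and 4 at day 4, with highest folds of 5.23 and 5.35, and lost a peak of 3.54 at 1342 bp inside the gene. Reads from the AP1 promoter of the transgene cannot be told apart from those of the native gene. At the SEP3 gene itself the highest fold was 8.88 at day 8 against 12.24 at day 4, a difference from the median ratio of −0.14 on the log2 scale. Within the gene, 1038 bp from its start, a kept peak had 2.34 against 8.47, a difference from the median ratio of −1.53 on the log2 scale, with summits 43 bp apart. That day 4 peak reached upstream of the gene, where it also overlapped another day 8 peak of 4.65.

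Of the 18 floral meristem identity and flowering time genes, 15 were kept and 3 were lost, CAL, TFL1 and FT. This was 16.7% of the 18 day 4 targets, against 10.1% of protein-coding day 4 targets. CAL, a close relative of AP1 that is mutant in these plants, lost a peak of 4.32 at 17 bp upstream that was also in the day 2 list. TFL1, a repressor of floral identity in the shoot, lost a peak of 4.50 at 790 bp past its end, but 304 bp from a day 8 peak that was not assigned to it. FT lost a weak peak of 2.82 (−log10 q 7.27) at 435 bp inside the gene. At genes that stayed assigned, LFY lost a peak of 2.55, AGL24 one of 3.69 and FD one of 3.54. Newly called peaks lay at SPL3 (2.78 and 2.71), SMZ (2.55) and TOE1 (2.42). In all, 4 of 45 day 8 peaks were newly called (8.89%), against 25.2% of all day 8 peaks. The 6 of 46 day 4 peaks lost (13.0%) were near the share of all day 4 peaks (13.2%).

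Among 15 organ polarity genes, 12 were kept, CNA was newly called with a weak peak of 2.39 and YAB5 lost its peak of 4.13. Of their 38 day 4 peaks, 8 were lost (21.1%, against 13.2% of all day 4 peaks), and of their 35 day 8 peaks 4 were newly called (11.4%, against 25.2% of all day 8 peaks). Kept pairs near these genes were a median of 0.21 below the median of all pairs, with 23 of 31 below it. All 25 genes of petal, sepal and organ growth were either kept (21) or had no peak on either day (4). None of the 21 day 4 targets was lost, against 10.1% of protein-coding day 4 targets. Of the peaks near these genes, 4 of 47 at day 8 were newly called and 4 of 47 at day 4 were lost (8.51% each), both under the shares of all peaks. A lost peak of 5.10 lay inside TCP24, a TCP gene that limits organ growth. Kept pairs of this list went both ways. Of 43, 5 lay at least 1.5-fold above the median ratio of all pairs and 2 at least 1.5-fold below it. Their median log2 difference from it was −0.09.

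In the lists for reproductive organs, newly called genes were few in number, and with 2 of 25 and 1 of 19 they were not below the 5.2% of protein-coding genes. Of 25 stamen and anther genes, 11 were kept, 12 had no peak, and SPL and MYB26 were newly called. SPL (SPOROCYTELESS), which initiates sporogenous tissue, had peaks of 2.51 and 2.29. MYB26, which acts in the thickening of the anther endothecium, had 3 peaks with folds of 3.27, 2.96 and 2.44. Of 26 day 8 peaks, 7 were newly called (26.9%), close to the 25.2% of all day 8 peaks. Of 19 gynoecium and ovule genes, 13 were kept, NUB was newly called through a peak of 2.43 and a peak of 2.59 that overlapped a day 4 peak not assigned to it, and STY2 and SHI lost peaks of 4.72 and 3.90. The lost genes were 13.3% of the 15 day 4 targets, against 10.1% of protein-coding day 4 targets. Of 26 day 8 peaks of this list, 4 were newly called (15.4%, against 25.2% of all). Of its 29 day 4 peaks, 5 were lost (17.2%, against 13.2% of all). STY2 and SHI belong to the SHI/STY family, which promotes gynoecium and auxin-related development.

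Hormone genes showed gains and losses at single genes. Peaks newly called were 6 of 34 (17.6%) in the gibberellin list and 4 of 30 (13.3%) in the auxin list. They were 2 of 7 (28.6%) in the cytokinin list and 6 of 17 (35.3%) in the brassinosteroid and ethylene list, against 25.2% of all day 8 peaks. In the same order, the lost shares of day 4 peaks were 10.3, 18.8, 37.5 and 7.69%, against 13.2% of all day 4 peaks. In the gibberellin list, GA20OX1 was newly called (2.34) and GA20OX3 lost (3.47), and RGL1, a DELLA repressor gene, gained a peak of 4.08 at 105 bp upstream. In the auxin list, YUC6 was newly called (3.35 and 2.95) and TAA1 lost its peak of 4.44, both genes of auxin synthesis, and the auxin carrier gene AUX1 lost peaks of 4.53 and 3.90. All 10 jasmonate genes were either kept (9) or newly called (COI1, 2.24). None of the 9 day 4 targets was lost, against 10.1% of protein-coding day 4 targets. LOX2, a lipoxygenase gene of jasmonate synthesis, gained a peak of 4.09 at 85 bp upstream, and 6 of 24 day 8 peaks of the list were newly called (25.0%), as for all day 8 peaks. None of its 17 day 4 peaks was lost, against 13.2% of all day 4 peaks. In the brassinosteroid and ethylene list, BES1 and ETR1 were newly called (2.72 and 3.26). CPD, a gene of brassinosteroid synthesis, gained peaks of 3.07 and 2.91. In the cytokinin list, CKX3 was newly called (2.29) and HK3 lost (2.95), and the response regulator gene ARR5 lost a peak of 4.10. Newly called genes were 6.25% of the gibberellin, 7.14% of the auxin, 9.09% of the cytokinin and 20.0% of the brassinosteroid and ethylene list. The share was 5.2% of protein-coding genes, and each list share rests on 1 or 2 genes.

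**Figure D5:**
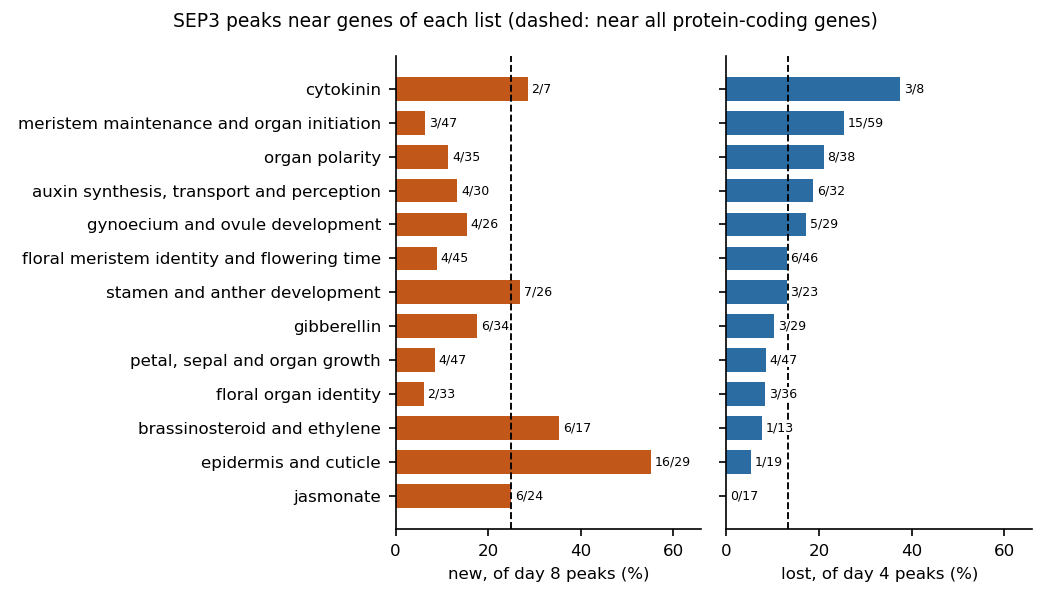
Share of day 8 SEP3 peaks near the genes of each list that were newly called (left panel, percent) and share of day 4 peaks that were lost (right panel, percent), with counts beside the bars and dashed lines at the shares for all protein-coding genes. The newly called share was highest for epidermis and cuticle genes (16 of 29), and lists with few peaks such as cytokinin (3 of 8 lost) rest on single peaks.

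Counts of the epidermis and cuticle, meristem and flowering lists were recomputed with other ways of matching or limiting peaks, chosen after the values were seen. The newly called epidermis and cuticle genes numbered 5 to 7 and the lost ones 0 throughout, and the newly called share of peaks ran between 48.0 and 72.4%. The lost share of peaks of this list was not stable, since it ran between 0 of 15 and 11 of 19 peaks. The lost share of peaks near meristem genes ran between 17.4 and 35.6%, and the lower value came with day 4 peaks of −log10 q of at least 10, of which 6.09% were lost overall. The lost flowering genes numbered 2 to 4.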

How the data were processed

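The members and gene lists described here were chosen with earlier results of these data known. Per the labels and the study's methods, the authors mapped reads with Bowtie 0.12.7 after base calling with CASAVA 1.7 or 1.8 (versions from the submitters' processing notes), merged 2 biological replicates per list and, with MACS2, compared them with the mock control at a false discovery rate threshold. The deposited lists give each peak's position, summit, fold enrichment (a linear ratio), p and q value as −log10, and assigned genes. The authors assigned a gene when a peak lay up to 3000 bp upstream or 1000 bp downstream of it. Total reads per library were not used here, so precision is given only by counts of peaks.

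Peaks were matched by an overlap of at least 1 bp and loci by the assigned genes. Shares carry Wilson 95% intervals. The log2 ratio of day 8 over day 4 fold of each kept day 8 peak, with the overlapping partner of nearest summit, was centred on the median. Named peaks were the 8 new and 8 lost with the highest fold, the 5 strongest kept (of which 1 is not reported here), the largest ratios, and the changed members of 13 gene lists; other names were chosen after their values were seen. Motifs and gene positions used RefSeq TAIR10.1, and 191 of the 9023 assigned loci were not in that annotation. Code was tested on simulated peaks. Python 3.11.15, numpy 2.4.6, pandas 2.3.3, scipy 1.17.1 and matplotlib 3.10.9 were used. Alternatives changed the overlap rule, the −log10 q limit, the list length, the gene window, the ratio and the motif.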

Additional observations from a re-analysis of the deposited data

How the results depend on the processing

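Requiring a reciprocal overlap of 50% gave 30.9% newly called and 21.0% lost peaks, AP1 day 8 overlap of 1.24% of new and 4.94% of kept day 8 peaks, AP1 day 4 overlap of 2.08% of lost and 6.50% of kept day 4 peaks, and 0.444% and 0.278% of pairs 2-fold above and below the median. Requiring summits within 150 bp gave 28.8% and 18.7%, AP1 overlap of 13.9% of kept day 8 and 2.81% of lost peaks, and 0.270% of pairs below. With −log10 q of at least 10 on both days, 30.7% of peaks were new and 9.71% lost, and 24.4% of genes were new and 8.19% lost. The CArG share was then 7.47% of kept day 8 and 7.54% of kept day 4 peaks, AP1 overlap was 4.07% of new, 19.3% of kept day 8, 2.95% of lost and 20.0% of kept day 4 peaks, and 0.457% and 0.297% of pairs lay above and below. Applied to the list being counted alone, that limit gave 17.1% and 6.09%. With the day 8 list reduced to 6843 peaks, 20.3% of peaks were new and 18.5% lost, 14.1% of genes new and 14.8% lost, AP1 overlap 16.4% of kept day 8 peaks and pairs below 0.330%. Genes assigned within 1000 bp upstream to the gene end gave 21.2% and 12.9%. Ratios of −log10 q gave 8.40% above and 7.75% below, uncentred ratios 0.0684% and 2.34%, and a limit of 1.5-fold 5.87% and 3.92%. A CArG box with 1 mismatch allowed was in 27.9% of new, 35.7% of kept day 8, 26.7% of lost and 35.9% of kept day 4 peaks, and within 100 bp an exact box was in 5.02%, 7.80% and, for kept day 4 peaks, 7.79%. In each setting run, the CArG share was lower in new than in kept day 8 peaks and in lost than in kept day 4 peaks. No paired analysis was possible because each list combines its replicates, and leaving out a replicate could not be run for the same reason. A peak absent from a list can lie just under its threshold, and list length, depth and the quality of the precipitation cannot be told apart from the day.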

Other observations

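Changes were also counted in 10 gene families outside the lists above, with no test of a family. Of 29 Aux/IAA genes, which encode repressors of auxin response, 16 were kept, 5 newly called (17.2%) and none lost, against 5.2% newly called and 2.6% lost of all protein-coding genes. The newly called ones were IAA1, IAA6, IAA7, IAA12 and IAA29, all with weak folds of 2.12 to 2.68. Of 25 ARF genes, which encode the auxin response factors, 12 were kept, none newly called, and ARF18 (3.14) and ARF4 (3.11) were lost. Of 33 XTH genes, which encode enzymes of cell wall xyloglucan, 10 were kept, 3 newly called (XTH16 2.76, XTH11 2.31 and XTH13 2.86) and none lost. No gene of the 12 JAZ repressors or of the 19 light-harvesting proteins was newly called or lost.

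Of 326 microRNA genes, 54 were kept, 11 newly called (3.37%) and 6 lost (1.84%), shares below those of protein-coding genes, so the members named next are single cases. The newly called ones included MIR396b (3.56), whose microRNA represses growth-regulating factor genes, and MIR397a (2.72), MIR398b (2.77) and MIR408 (2.64), whose microRNAs are known for their response to copper limitation. The lost ones included MIR166c (4.99), whose microRNA represses class III homeodomain-leucine zipper genes, MIR156b (3.76), MIR172e (3.56) and MIR164c (2.71), whose microRNA represses CUC1 and CUC2. As several microRNA genes lie close to other genes, a peak can be assigned to both.

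Some loci changed by several peaks together. NAC062 had no peak at day 8 and 7 at day 4, with folds of 2.59 to 3.28. IQD13 had none at day 8 and 4 at day 4 (3.1 to 4.09), and SRS7, of the SHI/STY family, none at day 8 and 3 at day 4 (3.34 to 4.29). In the other direction, AT2G15880 had 4 peaks at day 8 (2.22 to 3.76) and none at day 4, the nitrate transporter gene NRT1.7 had 5 (2.36 to 4.23) and 1 (3.74), and the expansin gene EXPA6 had 4 (2.24 to 5.93) and 1 (6.09). KCS1, a gene of fatty acid elongation, had 5 at day 8 (2.22 to 3.01) and 2 at day 4 (3.0 and 3.67).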
